A study of Mus musculus with 6 samples.

Results

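The Dlk1-Dio3 cluster is a long run of imprinted miRNA genes on distal mouse chromosome 12. Of 39 miRNAs listed for it, 38 had a probe on the array, and miR-540 had a probe for each arm. This gave 39 member probes among 597 probes that name a mouse miRNA, or 38 of the 609 mouse miRNAs named. MiR-370 found no spot under the naming rule, which took every spot whose name holds a listed miRNA, with or without an arm, and left out star forms. The measurements came from retinal cells of B10.RIII mice aged 8 weeks: 3 naive samples and 3 taken on day 14 from animals developing EAU, the mouse model of autoimmune uveitis, each harvested independently. The labels used here name neither the agent that induced EAU nor the number of mice in a sample. The RNA of each sample (800 ng) was labelled with Hy3 and set on a locked nucleic acid (LNA) array against 1 reference, a blend of equal amounts of the samples labelled with Hy5. No dyes were swapped.

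The locus is imprinted: its noncoding RNAs and miRNAs are made from the maternal chromosome, while the protein-coding genes Dlk1, Rtl1 and Dio3 are made from the paternal one. The miRNAs are cut from long maternal transcripts and are best known in the brain and the embryo. In neurons, the group that opens with miR-379 and ends near miR-410 is known to be induced by the transcription factor Mef2 under activity, and miR-134, miR-329 and miR-381 of that group act on the growth of dendrites. MiR-127, miR-431, miR-433 and miR-434 lie opposite Rtl1 and are known for pairing with its mRNA.

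Mature sequences are given for the member probes past the test, those with the brightest signal and 3 of those near the threshold. They are from RefSeq (GRCm38.p6, plus strand), written 5′ to 3′ with the seed, bases 2 to 8, in capitals. The first lines are the probes that passed the test.
miR-494: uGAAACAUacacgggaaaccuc
miR-329: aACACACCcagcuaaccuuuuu
miR-541: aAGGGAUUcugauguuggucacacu
The next lines are 4 more probes with signal on every array.
miR-434-3p: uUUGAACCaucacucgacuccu
miR-382: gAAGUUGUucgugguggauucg
miR-665: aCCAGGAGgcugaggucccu
miR-668: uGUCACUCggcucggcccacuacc
The last lines are probes near the threshold.
miR-127: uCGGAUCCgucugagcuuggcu
miR-433: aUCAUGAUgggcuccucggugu
miR-323-3p: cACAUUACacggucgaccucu
MiR-494 lies at chr12:109715367-109715388, miR-329 at chr12:109713541-109713562 and miR-541 at chr12:109742422-109742446. A sequence was found for 36 of the 39 member probes, not for miR-376c, miR-487b and miR-485. The 36 sequences have 36 different seeds, and none is shared between members.

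A few members do resemble each other over their whole length, which matters for a hybridisation probe. The closest pairs were miR-300 and miR-381, with 3 mismatches over 22 bases, miR-376a and miR-376b, with 3 over 21, and miR-495 and miR-543, with 4 over 22.
miR-300: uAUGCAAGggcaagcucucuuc
miR-381: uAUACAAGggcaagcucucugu
miR-376a: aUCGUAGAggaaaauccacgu
miR-376b: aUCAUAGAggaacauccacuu
Whether a probe of such a pair captures the other miRNA was not tested, and none of these 6 probes passed the test below.

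Most of the cluster lay near the background in these cells. A probe counted as above the blanks on an array when at least 50% of its 4 spots exceeded the median of the blank and negative-control spots by 3 median absolute deviations. By this measure, 8 of 39 member probes were above the blanks in the sample channel on all 6 arrays, against 197 of 597 mouse probes (33%). These were miR-329, miR-376c, miR-382, miR-434-3p, miR-487b, miR-494, miR-665 and miR-668. Another 13 were above the blanks on 1 to 5 arrays, and 18 on none, against 224 of all mouse probes (37.5%) on none. The 18 include miR-134, miR-379, miR-410, miR-411 and both arms of miR-380, miR-409 and miR-540. The number of member probes above the blanks was 14.3 ± 4.16 in naive and 13.7 ± 3.51 in EAU samples (SD, n = 3 each), and the groups overlapped. In bulk RNA, fewer cells of a type and less RNA per cell cannot be told apart.

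EAU and naive samples were compared by the log2 ratio of sample over reference, with limma and Benjamini-Hochberg adjustment over 595 tested mouse probes. At an adjusted p under 0.05, 3 of 39 member probes differed: mmu-miR-494 and mmu-miR-329 were higher in EAU and mmu-miR-541 was lower. Over all mouse probes 12.9% passed, 4.2% higher and 8.74% lower. The 3 member probes are a smaller share than that background. Among the probes above the blanks on all arrays, however, 2 of 8 member probes passed, against 47 of 195 tested mouse probes. At an unadjusted p under 0.05 there were 8 of the 39 member probes, against 206 of all mouse probes. The values of the groups did not overlap in 14 member probes, 5 higher and 9 lower in EAU, where 46.6% of all mouse probes had no overlap, 17% higher and 29.6% lower. The median difference of the member probes was -0.016 on the log2 scale, beside -0.012 over all mouse probes. The differences ran from -0.27 to 0.76, with 14 positive and 25 negative; over all mouse probes 42% were positive. The differences thus lay on both sides of 0, and with the offset of 50 only miR-494 of the member probes moved by more than 1.5-fold in the ratio. With no offset the differences of miR-323-3p, miR-376c, miR-434-3p and miR-410 were over 1.5-fold too (0.83, 0.76, 0.74 and -0.59), and of these 4 only miR-323-3p passed.

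**Figure D1:**
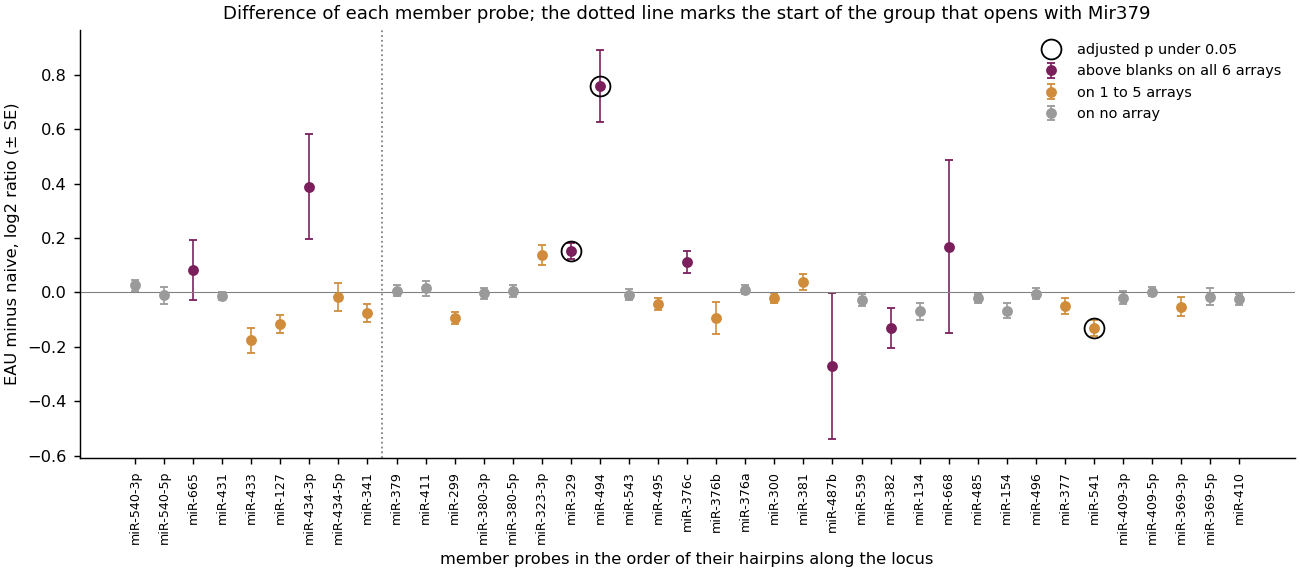
Difference between EAU and naive in the log2 ratio (vertical axis, ± SE) for each of the 39 member probes, in the order of their hairpins along the locus, coloured by the number of arrays on which the probe was above the blanks. Rings mark the 3 probes past the test, and the grey probes, above the blanks on no array, lie between -0.07 and 0.03.

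MiR-494 had the largest difference of the cluster and the second largest increase of all mouse probes (rank 2 of 595). Its log2 ratios were -1.09, -0.70 and -1.01 in naive replicates 1 to 3 and -0.02, -0.36 and -0.14 in EAU replicates 1 to 3. Each EAU sample lay above each naive sample. The difference was 0.76 (SE 0.13, 1.69-fold, adjusted p = 0.0266).

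The ratio is formed from both channels, so the signals of each are given. The sample signal of miR-494 was 2018, 1908 and 1273 in the naive replicates and 2169, 3878 and 1550 in the EAU replicates, so the groups overlapped. The signal of the shared reference at the same spots was 566, 673.3 and 326 on the naive arrays and 211, 365 and 103 on the EAU arrays, although every array received the same blend. The naive mean was 2.30 times the EAU mean in the reference channel, while the EAU mean was 1.46 times the naive mean in the sample channel. In the sample channel alone, after loess and quantile scaling of the average intensity, the difference of miR-494 was 0.22 (SE 0.23, adjusted p = 0.719). The reference signal was lower on EAU arrays in the mean of all 8 bright members, by 1.06 to 2.30 times. At its 99th percentile over all spots of an array, the reference channel read 772 ± 249.8 on naive and 474 ± 258 on EAU arrays (SD, n = 3 each), with the lowest value, 202, on EAU replicate 3. The arrays were scanned on 2 days, each holding 1 group, and an effect of the day cannot be told apart from that of EAU. The part of these reference values in the ratios was not tested.

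**Figure D2:**
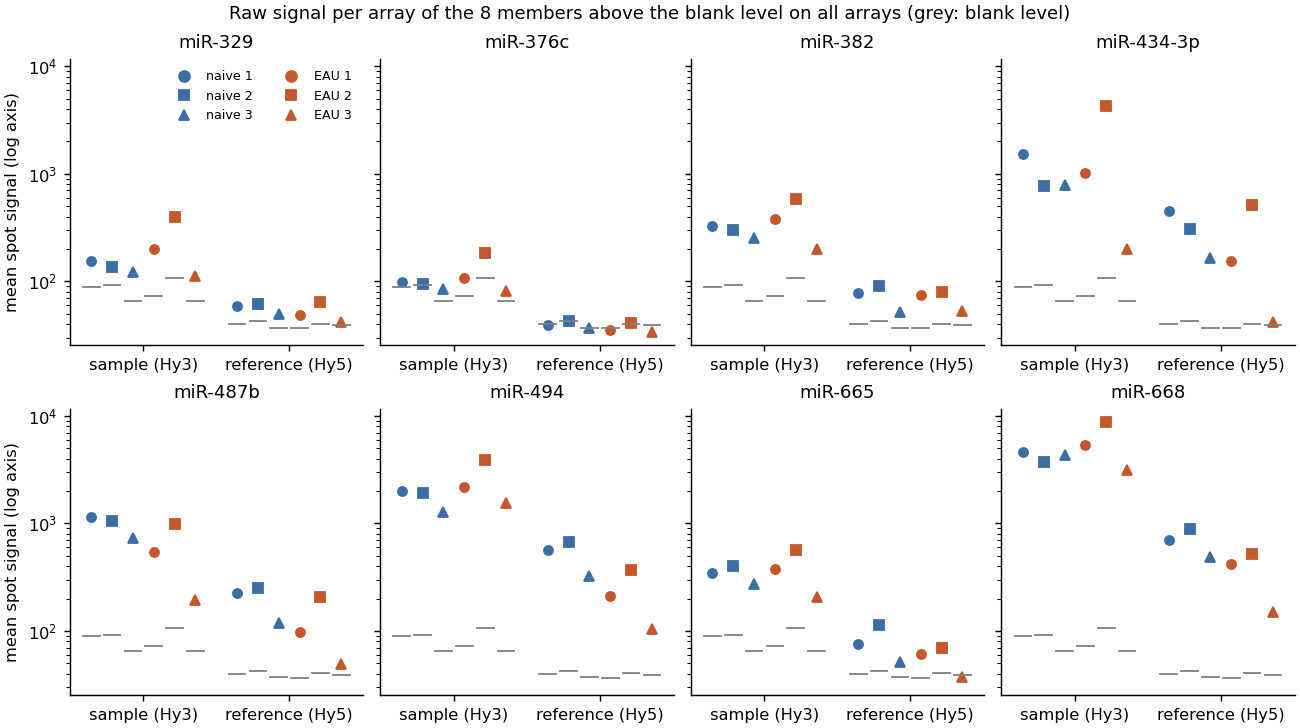
Raw mean spot signal (log axis) in the sample and reference channels for the 8 member probes above the blanks on all 6 arrays; each point is 1 array and grey dashes mark its blank level. The reference points of miR-494 fall from 326 to 673.3 on naive arrays and from 103 to 365 on EAU arrays, and the sample points of miR-487b are lowest on EAU replicate 3.

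MiR-329, 1 of the members that act on dendrites, changed little but evenly. Its log2 ratios were -0.24, -0.15 and -0.17 in the naive and -0.03, -0.01 and -0.06 in the EAU replicates, with no overlap. The difference was 0.15 (SE 0.03, adjusted p = 0.0326), or 1.11-fold. Its spots were weak, with sample signals of 156, 136.2 and 123 in naive and 202, 396 and 111 in EAU samples, and the offset of 50 added before taking logs shrinks folds at that level. With no offset the difference was 0.42 and did not pass. The call of miR-329 was lost when any 1 array was left out (adjusted p 0.0633 to 0.0854).

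MiR-541 was the only member called lower, and its call rested on 1 of its 4 spots per array. Its log2 ratios were 0.02, 0.05 and -0.00 in the naive and -0.16, -0.11 and -0.06 in the EAU replicates, a difference of -0.13 (SE 0.03, adjusted p = 0.0473). On EAU replicate 1 its 4 sample spots read 318, 50.9, 49.0 and 48.2, from the topmost of its spots on the array down, and on naive replicate 3 they read 256, 45.1, 47.7 and 48.2. The other spots of these arrays thus lay near the background, and the topmost spot was bright in both channels. Without the topmost spot of every probe, miR-541 differed by -0.02 (adjusted p = 0.383). Its call was also lost when any 1 array was left out (adjusted p 0.0711 to 0.145). MiR-433, which had the same pattern of spots, went from -0.18 to -0.03.

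A topmost spot at over 2 times each of the other spots was seen for 14 of 39 member probes (35.9%) on at least 1 array, and for 23.6% of all mouse probes. On the naive arrays 2, 2 and 6 member probes had one, and on the EAU arrays 7, 5 and 13. Over all mouse probes the counts were 15, 48 and 40 on the naive and 67, 50 and 118 on the EAU arrays. None of the bright members miR-329, miR-376c, miR-434-3p, miR-487b, miR-494, miR-665 or miR-668 had one, while the bright member miR-382 had one on 1 EAU array. With the topmost spot of every probe left out, bright or not, 4 member probes passed, and 12.8% of all mouse probes did: miR-494 (0.82, adjusted p = 0.0104), miR-329 (0.18, adjusted p = 0.00888), miR-376c (0.12, adjusted p = 0.0461) and miR-127 (-0.13, adjusted p = 0.0322). None of these 4 had a bright topmost spot. In the same setting the signs of the member differences went from 14 positive and 25 negative to 24 and 15, and those of all mouse probes from 250 and 345 to 293 and 301. The rule of 2 times each of the other spots does not count a probe with several bright spots on an array. On naive replicate 2 the sample spots of miR-299 read 314, 220, 160 and 56.8 from the topmost down, and those of miR-376b 311, 198, 180 and 50.7. On EAU replicate 2 those of miR-376b read 158, 185, 53.8 and 64.0. Such further spots stay in when only the topmost is left out. Leaving out the bright spots alone was not run.

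**Figure D3:**
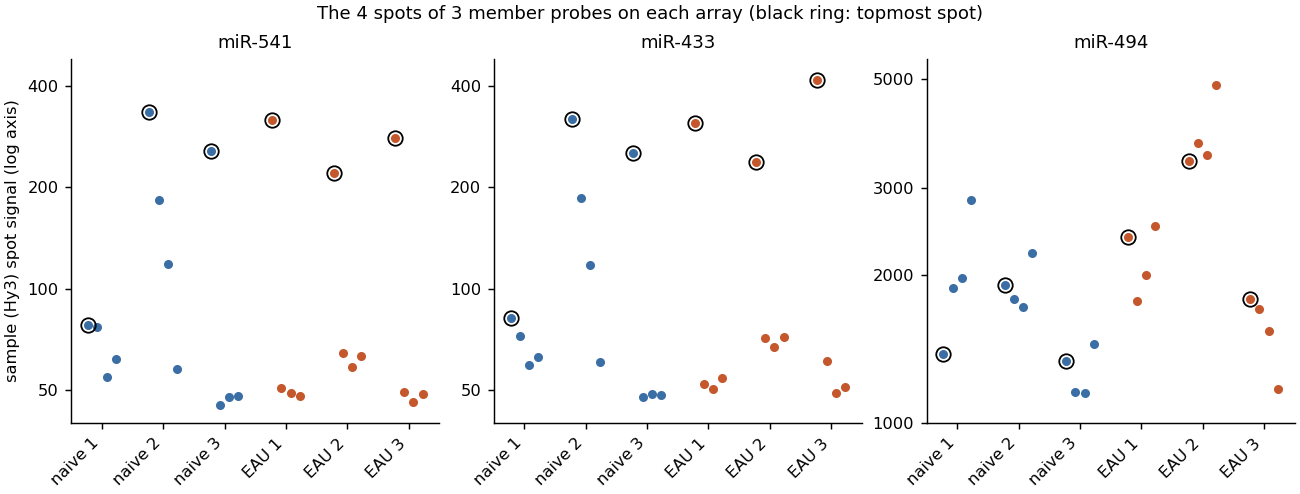
Sample-channel signal (log axis) of each of the 4 spots of miR-541, miR-433 and miR-494 on the 6 arrays, naive in blue and EAU in orange, outlier spots included; the black ring marks the topmost spot. For miR-541 and miR-433 the ringed spot stands far above the rest on all EAU arrays and on naive replicate 3, while for miR-494 it lies among the others.

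Of the other 6 members with signal on every array, none passed in the log2 ratio. MiR-434-3p, from the strand opposite Rtl1, had log2 ratios of -0.73, -0.61 and -0.49 in naive and -0.38, -0.48 and 0.20 in EAU samples. The groups just failed to overlap, with a difference of 0.39 (SE 0.19, adjusted p = 0.213). Its sample signal was the most uneven of the cluster within EAU: 1012, 4247 and 202, against 1517, 771 and 789 in naive samples. MiR-376c differed by 0.11 (SE 0.04, adjusted p = 0.118), with no overlap: 0.02, 0.04 and 0.04 in naive and 0.10, 0.23 and 0.10 in EAU samples. The size of its difference moved with the treatment of the background: it was 0.76 with no offset (adjusted p = 0.0514), 0.53 from the processed signals (adjusted p = 0.0657) and 1.00 in a limma fit of the authors' deposited table, where it passed (adjusted p = 0.00632). MiR-382 differed by -0.13 (SE 0.07, adjusted p = 0.259), and its sign turned under median centring (0.26). Without the topmost spot of every probe its difference was -0.01 (adjusted p = 0.929). MiR-665 differed by 0.08 (SE 0.11, adjusted p = 0.621) and miR-668 by 0.17 (SE 0.32, adjusted p = 0.742). For miR-668 the software marked 12 of 24 spots as outliers, so on at least 1 array its value came from 1 spot. With outlier spots kept, its difference was 0.36 (SE 0.10, adjusted p = 0.0708), also not past the test.

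**Figure D4:**
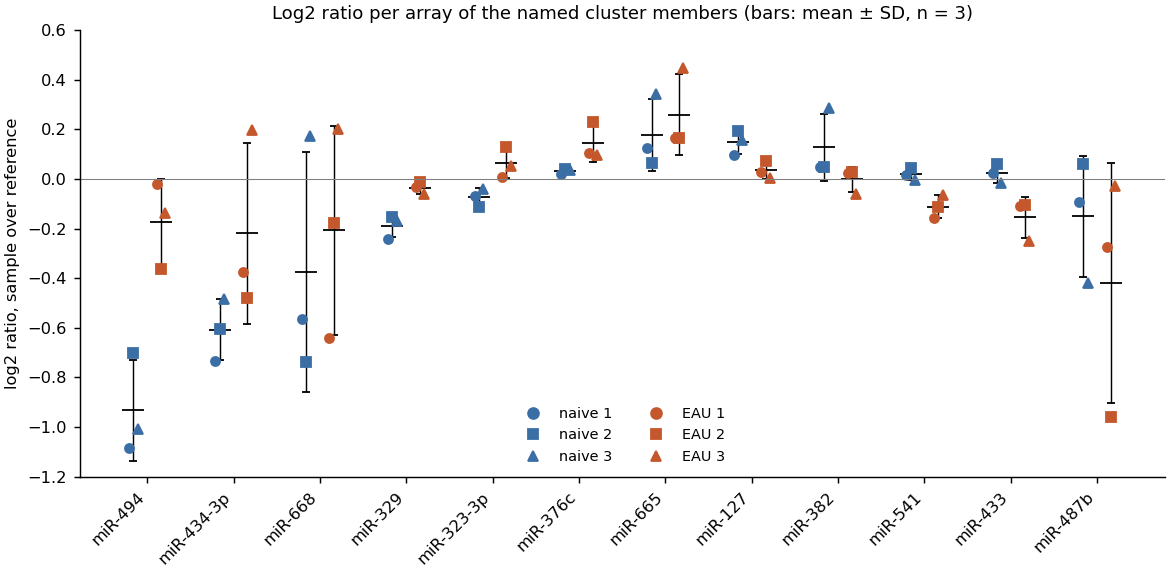
Log2 ratio of sample over reference for the 12 named member probes on each array, with the group mean ± SD (n = 3); naive in blue and EAU in orange. MiR-494 separates most, from a naive mean of -0.93 to an EAU mean of -0.17, while the groups of miR-668, miR-665 and miR-487b overlap.

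MiR-487b was the member that depended most on the channel. Its log2 ratios were -0.09, 0.06 and -0.42 in the naive and -0.27, -0.96 and -0.03 in the EAU replicates, so the groups overlapped, and the difference was -0.27 (SE 0.27, adjusted p = 0.52). In the sample channel alone its log2 levels were 8.73, 8.78 and 8.58 in naive and 7.90, 7.71 and 7.39 in EAU samples. Every EAU level lay below every naive level, with a difference of -1.03 (SE 0.14, adjusted p = 0.0153). It was the only member probe of 39 past the test in that channel, where 10.6% of all mouse probes passed, 4.87% higher and 5.71% lower. With the sample channel scaled by quantiles and the reference not used at all, the difference was -1.24 (SE 0.18, adjusted p = 0.0142). Leaving out each array in turn kept the sample-channel difference between -1.15 and -0.89, with adjusted p from 0.0134 to 0.0689. The call was lost without naive replicate 1 (adjusted p = 0.0689), without naive replicate 3 (0.0604) and without EAU replicate 2 (0.0645). The raw sample signals, 1153, 1045 and 731 in naive and 545, 991 and 193 in EAU samples, overlapped before scaling. The reference signal fell at the same spots, from a mean of 197 ± 68.9 on naive to 118 ± 80.7 on EAU arrays (SD, n = 3 each), which the ratio takes off.

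MiR-299, miR-433, miR-323-3p and miR-127 lay just short of the threshold, without signal on every array. MiR-299 differed by -0.09 (SE 0.02, adjusted p = 0.0578) with no overlap, was above the blanks on 1 array, and read 0.01 without the topmost spot. MiR-433 differed by -0.18 (SE 0.05, adjusted p = 0.0672). MiR-323-3p had log2 ratios of -0.07, -0.11 and -0.04 in naive and 0.01, 0.13 and 0.05 in EAU samples, a difference of 0.14 (SE 0.04, adjusted p = 0.0711). It was above the blanks on 0 naive and 2 EAU arrays. It was called higher in 5 of 22 other settings, with values of 0.83 with no offset and 0.69 in the authors' deposited table, and it read -0.02 under loess fitted on bright spots. MiR-127, the classic imprinted partner of Rtl1, differed by -0.12 (SE 0.03, adjusted p = 0.0736), from 0.10, 0.19 and 0.16 in naive to 0.03, 0.07 and 0.00 in EAU samples, with no overlap.

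Calls were few on either side of Mir379, which opens the larger group of hairpins. The 9 probes before Mir379 had a median difference of -0.014 with 0 called, 8 of them within the span of Rtl1 and miR-341 within Rian. The 30 probes from Mir379 on had a median of -0.018 with 3 called. MiR-329 and miR-494, whose hairpins are close neighbours, were both called, but the members next to them along the locus did not pass. MiR-323-3p, before them, differed by 0.14 (adjusted p = 0.0711), and miR-543 and miR-495, after them, by -0.01 and -0.04. The base composition was alike in bright and dim members, with a median GC share of 47.8% in the bright and 47.6% in the dim ones.

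A second list held the other mouse probes of the locus, 34 in all, among them 12 star forms of members. Of these, 2 passed, both lower, where 8.74% of all mouse probes were called lower: miR-770-5p (-0.14, SE 0.02, adjusted p = 0.0205) and miR-337-5p (-0.08, SE 0.02, adjusted p = 0.0374). Their median difference was -0.005, with a range of -0.24 to 0.41. MiR-337-5p was above the blanks on 1 array, and its difference was 0.01 without the topmost spot and 0.02 in the sample channel, neither past the test. MiR-770-5p had log2 ratios of 0.16, 0.17 and 0.16 in naive and 0.02, -0.00 and 0.06 in EAU samples. In the sample channel its difference was -0.23 and did not pass (adjusted p = 0.0893), and it was called in 8 of 23 other settings. The largest positive differences were those of miR-300* (0.41, SE 0.10, adjusted p = 0.0584) and miR-485* (0.33, SE 0.09, adjusted p = 0.0698). Each had signal over the blanks on every array and no overlap between the groups, but missed the threshold. The unstarred arms, miR-300 and miR-485, read -0.02 each but were dimmer, above the blanks on 4 arrays and on no array. Mean sample signals in naive and EAU were 662 and 1161 for miR-300*, against 100 and 110 for miR-300. They were 199 and 398 for miR-485*, against 58.0 and 54.2 for miR-485. In the sample channel alone, miR-485* was the only probe of the second list past the test (0.54, adjusted p = 0.0203).

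The arms of 1 hairpin are cut from 1 transcript, and 17 hairpins of the members had a probe for both. The differences had the same sign in 4 and opposite signs in 13. In none were both arms above the blanks on all arrays, in 7 only 1 arm was, and in 7 neither arm was above them on any array. Many of these signs thus belong to values near the background. MiR-433 and miR-433* read -0.18 and 0.24, neither past the test, and only miR-433* had signal on every array. MiR-434-3p and miR-434-5p read 0.39 and -0.02, miR-409-3p and miR-409-5p -0.02 and 0.00, and miR-380-3p and miR-380-5p -0.00 and 0.00.

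**Figure D5:**
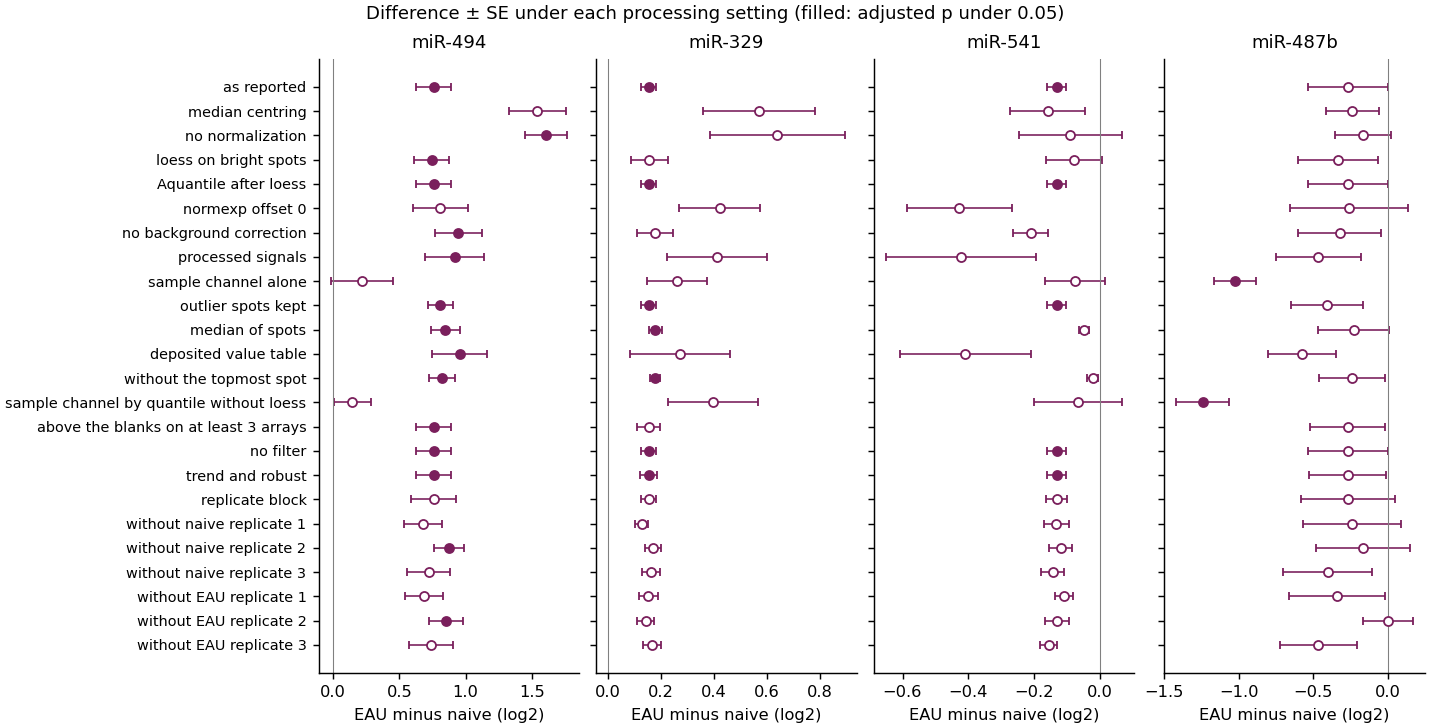
Difference between EAU and naive (horizontal axis, log2, ± SE) for miR-494, miR-329, miR-541 and miR-487b under each way of processing the arrays; filled points passed an adjusted p under 0.05. MiR-494 stayed positive in every setting shown and passed in 14 of 23, miR-329 in 6 of 23 and miR-541 in 4 of 22, while miR-487b passed only where the sample channel stood alone. Aquantile after loess and no filter left these ratios and tests unchanged, so passing there only repeats the reported call. Keeping outlier spots likewise left the ratios of miR-329 and miR-541 unchanged, as neither had any.

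The call of miR-494 held in 14 of 23 other settings and its sign in all 23. Among the 14 are Aquantile after loess and no filter, which left its ratios and test unchanged and so only repeat the reported call. The call was lost in both sample-channel settings, with median centring (1.54, adjusted p = 0.0532), with no offset (0.81, adjusted p = 0.0524) and with the replicate number as a block (adjusted p = 0.118). It was also lost without naive replicate 1 (adjusted p = 0.0906), naive replicate 3 (0.0698), EAU replicate 1 (0.0516) or EAU replicate 3 (0.0824). With no normalization its difference was 1.61.

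Markers of other cell types moved between the same samples. Among miRNAs of photoreceptors, the log2 ratio of miR-183 fell by 1.38 (adjusted p = 0.0483). MiR-96 and miR-182 read -0.91 and -1.28 without passing. Of the neuronal markers, miR-9 fell by 0.35 (adjusted p = 0.0211) and miR-128, above the blanks on 1 array of each group, fell by 0.17 (adjusted p = 0.0291), while miR-124 read -0.69 (adjusted p = 0.52). The leukocyte marker miR-142-3p rose by 0.56 (adjusted p = 0.0166), and miR-142-5p, miR-223, miR-150 and miR-155 did not pass (0.47, 0.13, -0.10 and 0.09). Both markers of the pigment epithelium fell, miR-211 by 0.50 (adjusted p = 0.00702) and miR-204 by 0.73 (adjusted p = 0.0291). So did both of smooth muscle and pericytes, where miR-145 read -0.45 (adjusted p = 0.00702) and miR-143 -0.27 (adjusted p = 0.0291). Of the erythroid markers miR-486 fell (-0.23, adjusted p = 0.0463), and miR-451 and miR-144 did not pass (0.14 and 0.01). In the sample channel alone, miR-96 (-1.42), miR-182 (-1.80), miR-124 (-2.07) and miR-142-5p (0.77) passed too. There miR-9 (-0.48), miR-128 (-0.05), miR-143 (-0.21) and miR-486 (0.05) did not pass, and the other marker calls held. The ratio of miR-183 lacked EAU replicate 1 and that of miR-124 EAU replicate 2. MiR-155 and miR-144 were above the blanks on no array. The part of the marker shifts in the values of miR-494, miR-329 and miR-487b was not tested.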

How the data were processed

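The authors deposited 1 scanner file per array, holding spot intensity in 2 channels with local background. Per the file headers, the software was Agilent Feature Extraction 9.1.3.1. A deposited table gives 1 linear ratio for each probe, whose values follow Hy3 over Hy5 (median correlation 0.932 over 196 bright probes). How it was centred and normalized stays unknown. Its column medians were 0.879, 0.851 and 0.769 for naive and 0.809, 0.886 and 0.807 for EAU replicates, and 36 of its 1972 rows, with a ratio above 32 on every array, were left out.

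In limma 3.58.1 (R 4.3.3), normexp with an offset of 50 corrected the mean spot signals, and loess, in which control spots had weight 0, normalized each array. Values of a probe are means over its spots, without outlier spots. All 597 mouse probes carried the software's well-above-background flag on every array, so the filter on it removed none. 2 probes had too few values left to test. The comparison of EAU with naive used lmFit and eBayes on group alone, with two-sided p-values, Benjamini-Hochberg adjustment and a threshold of 0.05. The sample channel alone was taken after loess and Aquantile. The lowest correlation between arrays of the log2 ratio was 0.25. Only the limma fit was tested on simulated log2 ratios, with added differences larger than those of miR-329 and miR-541. The simulation did not cover background correction, normalization or the averaging of spots.

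Named are the member probes past the threshold, the 10 with the largest absolute difference and those above the blanks on all arrays, and others only as examples of likeness, position, arms or low signal, chosen after values were seen. The members and lists were chosen with earlier results of these data known. The alternatives covered background correction, normalization, channel, spots, filter, model, the replicate block and leaving out each array; leaving out the topmost spot, quantile scaling of the sample channel, and leaving out arrays in the sample channel were chosen after seeing the data. P-values reflect differences among harvests only, which may in part be technical, and 3 arrays a group limit the precision.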

Additional observations from a re-analysis of the deposited data

How the results depend on the processing

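The number of member probes past the test, 3, with 77 over all mouse probes, 2 in the second list and a member median of -0.016, changed as follows. Median centring gave 0, 2 and 0 with a median of -0.072. No normalization gave 1, 25 and 1 (-0.0028). Loess on bright spots gave 1, 24 and 0. An offset of 0 gave 1, 26 and 0 (-0.097). The sample channel alone gave 1 and 1 of the members and the second list (0.0018), and with quantile scaling 1 and 1 (0.0027). The median of the spots left 47 probes over all and 1 in the second list (0.0011). No background correction moved the median to -0.032, and leaving out the topmost spot to 0.0039. Testing only probes above the blanks on at least 3 arrays gave 1 of 15 members. A trended, robust fit gave 6 members and 4 in the second list. The replicate block gave 0 members, 2 over all and 0 in the second list. The sample titles give the replicate numbers without saying whether they pair the samples. Deviations of same-numbered samples correlated by 0.19, -0.15 and 0.29, and naive replicate 2 correlated best with EAU replicate 1 (0.30). With 3 arrays a group, these correlations cannot settle whether the samples were paired. Leaving out 1 array gave 0 to 1 members, 7 to 77 over all (7 without EAU replicate 3, 9 without naive replicate 1) and 0 to 2 in the second list. Of all mouse probes 25 were higher and 52 lower, against 42 and 30 from processed signals, 42 and 40 in the deposited table and 36 and 40 without the topmost spot. Signs turned for miR-323-3p (-0.018, loess on bright spots), miR-382 (0.26 with median centring, 0.33 with no normalization), miR-433 (0.035), miR-665 (-0.072) and miR-668 (-0.020) in the sample channel, and for miR-382 (0.082), miR-433 (0.10), miR-434-3p (-0.087) and miR-665 (-0.038) with quantile scaling of it. They also turned on leaving out 1 array, for miR-487b (-0.47 to 0.00063), miR-665 (-0.011 to 0.17) and miR-668 (-0.035 to 0.44), and in the sample channel for miR-494 (-0.0034 to 0.34). The causes were not tested. Signal near the blanks limits what 18 of the 39 member probes can show.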
